A study of Glycine max with 2 samples.

Results

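Clusters of close peaks in a library labelled for the soybean protein AGL62-like were examined as chains of peaks. In these chains, the summits of neighbouring peaks lay at most 2000 bp apart and at least 3 peaks followed each other. A peak is an interval where reads from chromatin immunoprecipitation (ChIP) exceeded the local input, and its summit is the highest point. The chains were chosen by the summit positions of the called peaks alone. Of the 17083 peaks on the 20 chromosomes, 1550 (9.07%) lay in 468 such chains. Another 3626 peaks lay in 1813 chains of 2, and 11907 were single. The 96 peaks on unplaced scaffolds stayed outside the rule, and they formed 12 chains of 2 and none of 3 or more.

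The chromatin came from whole Williams 82 seeds, 1.0 to 1.5 mm long, at the globular stage of the embryo, so embryo, endosperm and seed coat were sampled together. The groups were 1 ChIP library, precipitated with a rabbit polyclonal antibody raised to a stretch of the protein, and 1 input library of total chromatin from like seeds, both labelled replicate 1. AGL62-like is the name in the title and in the labels of both libraries, whereas the design text speaks of WOX9-like. With 1 ChIP library there was no replicate, so no difference below was tested, and each is a description of this list.

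AGL62 of Arabidopsis belongs to the type I MADS-domain transcription factors and is known for holding back the formation of cell walls in the early endosperm. MADS-domain proteins bind DNA as dimers at a short AT-rich motif, the CArG box. For floral MADS proteins of type II, a pair of dimers is known to join neighbouring boxes by looping the DNA between them. The genes and the DNA sequence at the chains were not analysed here.

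Most chains were short. There were 347 chains of 3 peaks, 101 of 4, 15 of 5 and 5 of 6. Summits of the first and last peak of a chain were 2490 bp apart at the median, with a range of 746 to 6457 bp. From edge to edge, the 468 chains covered 1.44 Mb in total. Called peaks took up 52.4% of a chain's length at the median, and the rest lay outside called peaks.

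Neighbouring summits within chains were 1042 bp apart at the median, and the middle 50% of the 1082 distances ran from 736.5 to 1478.5 bp. Distances from 801 to 1000 bp were the most frequent class of 200 bp, with 16.8% of them, and the share declined step by step to 8.96% from 1801 to 2000 bp. In chains of 2 the median distance was 1117 bp. The upper limit is set by the rule, and no 2 peaks on the chromosomes had edges closer than 52 bp. No fixed period was visible in classes of this width. In chains of 3 the longer distance was 1.49 times the shorter at the median, and it was over 2 times as long in 90 chains (25.9%). The first and the second distance of a chain were nearly unrelated (Spearman's rho = 0.036 over 347 chains, a description).

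The gap between the edges of neighbouring peaks was 523 bp at the median in chains of 3 or more and 650 bp in chains of 2. It was shorter than 249 bp, the length of the shortest peak, in 251 of 1082 gaps (23.2%) of the former and in 330 of 1813 (18.2%) of the latter. In 264 chains (56.4%) no gap was that short, and in 23 chains every gap was. Whether close peaks are separate sites or 1 region divided by the peak caller was not tested. When peaks under 249 bp apart were merged, 309 chains with 991 peaks were left.

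The rule has a sharp edge. The 45 chains with a distance of 1901 to 2000 bp held 149 peaks with a median fold of 5.23. A limit of 2100 bp would have made 34 further chains out of 110 peaks, with a median fold of 5.58, and would have added 11 peaks to 9 chains.

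Peaks in chains were about as strongly enriched as peaks elsewhere. Fold enrichment compares, as a ratio, the ChIP signal at the summit with its local background, as the authors' peak caller gave it. Its median was 5.33 in chains of 3 or more (95% exact binomial interval of the median 5.26 to 5.50), 5.52 (5.41 to 5.58) in chains of 2 and 5.43 (5.37 to 5.44) in single peaks. These intervals treat peaks of 1 library as independent and are too narrow. Single peaks within 50 kb of a chain, which share its neighbourhood, had a median of 5.43 (5.32 to 5.55, n = 1220). With each chromosome as 1 unit, the log2 median fold of chains minus that of single peaks was -0.01 ± 0.07 (SD over 20 chromosomes), and chains were higher on 9 chromosomes and lower on 11. The order of the medians turned with the chaining distance, from 4.97 against 5.44 at 1000 bp to 5.58 against 5.32 at 5000 bp, with chains first in each pair. Other choices turned it at 2000 bp too. The medians were 5.48 against 5.37 with distances taken between edges and 5.58 against 5.44 with close peaks merged. They were 5.66 against 5.62 at a −log10 q of at least 5, and 7.32 against 7.08 at 10. Without chromosome 13 the order stayed, at 5.32 against 5.43. It also stayed without peaks of high input level, at 5.37 against 5.44.

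A fold of 10 or more was reached by 128 peaks in chains of 3 or more, which is 8.26% (95% exact binomial interval 6.94 to 9.74), while 7.21% of all chromosome peaks reached it. The share was 6.81% in chains of 2, 7.20% in single peaks and 8.44% (6.94 to 10.1) in single peaks within 50 kb of a chain. A −log10 q of 10 or more was reached by 46.4% of the peaks in chains, against 47.2% of all chromosome peaks. Both shares in chains were near those of the whole list.

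Ordered by fold in 10 classes of equal size, peaks lay in chains least often in the sixth class, with 7.79% (6.56 to 9.16). The share was 9.71% (8.35 to 11.2) in the weakest class and 10.5% (9.06 to 12.0) in the strongest. Of the 100 chromosome peaks with the highest fold, 10 lay in chains of 3 or more, 26 in chains of 2 and 64 alone. These shares may be read against the 9.07%, 21.2% and 69.7% of all peaks in the same classes.

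**Figure D1:**
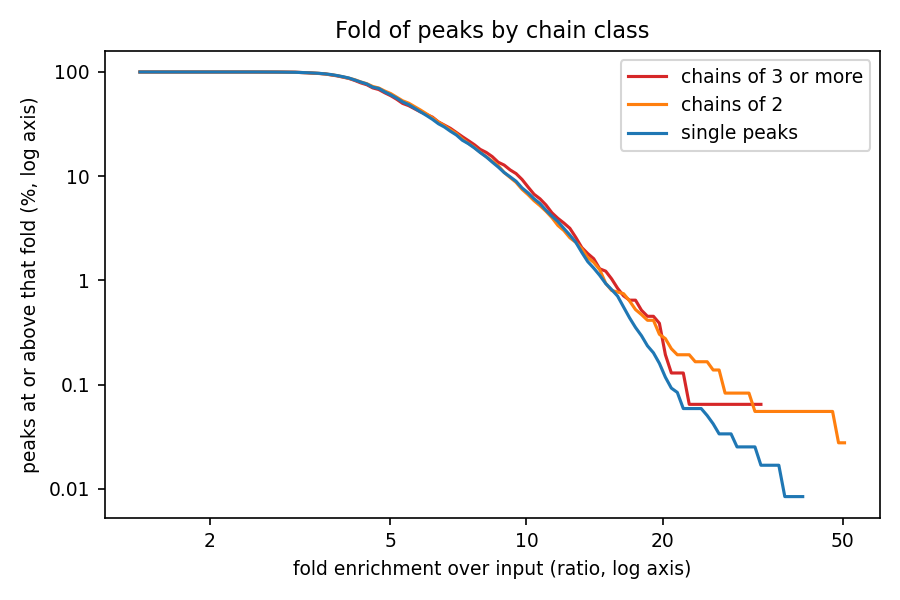
Share of peaks (%, log axis) at or above each fold enrichment over input (ratio, log axis) in chains of 3 or more (red), chains of 2 (orange) and single peaks (blue). The 3 lines stay close up to a fold of 10, where they stand at 8.26%, 6.81% and 7.20%, and above 20 they rest on 6, 10 and 16 peaks.

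The counts behind these folds were alike too. The number of ChIP fragments stacked at the summit, derived for each peak from its deposited fold and its p-value, had a median of 23 in each of the 3 classes. It ran from 12 to 149 in chains of 3 or more. The input level is the local background that the caller set against the summit, and it is not a count of input fragments there. It had a median of 3.29 in chains and 3.29 in single peaks. It stood at its lowest possible value, 2.76, in 7.74% (6.46 to 9.19) of the peaks in chains, 10.5% (9.94 to 11.0) of single peaks and 8.20% of single peaks within 50 kb of a chain. It was at 2 times that value or more in 36 peaks of 34 chains (2.32%), against 2.69% of single peaks. Without such peaks the median fold in chains was 5.37.

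Width differed more than fold. The median width was 412.5 bp (402 to 423) in chains of 3 or more, 389 bp (383 to 395) in chains of 2 and 384 bp (380 to 387) in single peaks. A wider peak tends to have a higher fold, so widths were compared in 4 classes of equal size by fold. In the third class, with folds from 5.44 to 7.02, the median was 454 bp (433 to 478) in chains and 402 bp (395 to 408) in single peaks. In the weakest class it was 310 bp (302 to 321) in chains against 300 bp (297 to 304), in the second 353 bp (339 to 368) against 330 bp (326 to 334) and in the strongest 574.5 bp (538 to 603) against 544 bp (534 to 553). The median was higher in chains in each class. At a chaining distance of 1000 bp the order was opposite, with 378 bp in chains and 388 bp in single peaks. Peaks of 1 kb or more made up 4.19% (3.25 to 5.31) of the peaks in chains and 3.01% (2.71 to 3.33) of single peaks. By class of fold, from the weakest to the strongest, the shares in chains were 0.49%, 0.51%, 6.07% and 9.85%. In single peaks they were 0.30%, 0.40%, 1.71% and 9.72%, so the shares stood apart in the third class and lay close in the others.

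The fold of a peak was nearly unrelated to that of its neighbour. Across the 1082 neighbouring pairs in chains of 3 or more, Spearman's rho of their folds was 0.053. It was 0.016 over 1813 pairs in chains of 2 and 0.045 over 6786 adjacent summits from 2 to 20 kb apart. These are descriptions, since pairs share peaks and all share 1 library. The higher fold of a pair was 1.35 times the lower at the median in chains, and 1.36 times for the farther pairs. For input levels of neighbours, rho was 0.17 in chains of 3 or more, 0.17 in chains of 2 and 0.033 for summits 2 to 20 kb apart. The input level is the caller's local background, which close summits can share in part. No conclusion about the input is drawn from these values.

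**Figure D2:**
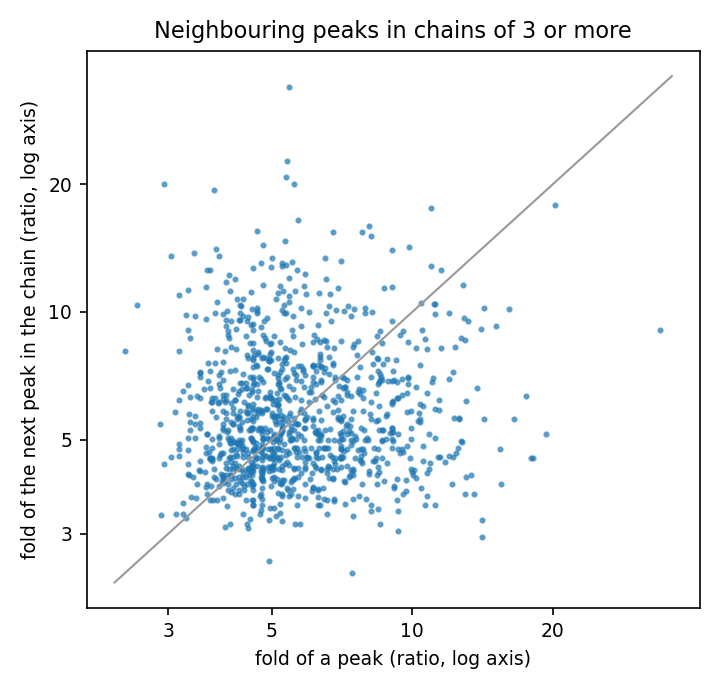
Fold enrichment of each peak (ratio, log axis) against that of the next peak in the same chain (ratio, log axis), for 1082 pairs in chains of 3 or more, with the line of equal fold in grey. The points form no slope along the line, and rho was 0.053.

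Strong and weak peaks occurred in the same chains. The highest fold in a chain was 1.73 times the lowest at the median, and 2 times or more in 164 chains (35.0%). A peak of fold 10 or more was present in 112 chains (23.9%). In 96 of these it was the only one, in 16 there were 2, and no chain had 3. All peaks of a chain had a −log10 q of 10 or more in 50 chains (10.7%), and none did in 72 (15.4%). Of all chromosome peaks, 7.21% reached that fold and 47.2% reached that −log10 q. How many chains these shares alone would give was not computed, so the counts are descriptions.

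In chains of 3, the middle peak was the weakest more often than either outer peak. The median fold was 5.37 (5.21 to 5.60) for the first peak by coordinate, 5.13 (4.90 to 5.32) for the middle one and 5.64 (5.32 to 5.88) for the last. Median summit fragments were 23, 21 and 24 in the same order, and median input levels were 3.40, 3.29 and 3.19. The middle peak was the strongest in 92 of 347 chains, 26.5% (95% exact binomial interval 21.9 to 31.5), while the first was in 121 and the last in 134. It was the weakest in 137 of the 344 chains without a tie, 39.8% (34.6 to 45.2). On the log2 scale the middle fold was -0.14 (-0.23 to -0.07) relative to the mean of its neighbours at the median, and it was the lower in 213 chains. The mean of this difference was -0.09. Folds are skewed toward high values, and what the skew adds to this difference was not tested. The same comparison was not made for the first or the last peak, so no conclusion is drawn from the difference. The interval of the middle median overlaps that of the first peak and meets that of the last. In chains of 4 the medians were 5.39, 5.66, 5.26 and 5.33 from the first peak to the last, and their intervals overlap too.

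**Figure D3:**
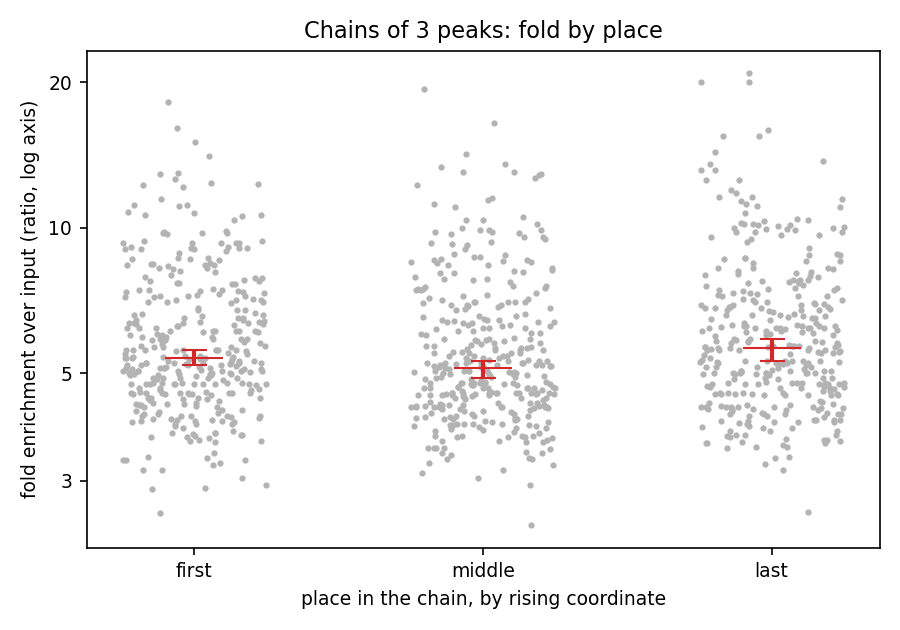
Fold enrichment over input (ratio, log axis) of the first, middle and last peak by coordinate in 347 chains of 3. Grey points are peaks, red bars are medians with their 95% exact binomial intervals, at 5.37, 5.13 and 5.64.

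The 5 chains of 6 peaks were the longest by number. Ranges of a fold given below let its fragment count take its 95% exact Poisson bounds with the input level held fixed, and they cover counting error only. The first of these chains by summed fragments lay on chromosome 15 from 10014456 to 10021469, with 179 fragments over its 6 summits. Its folds were 6.52, 12.0, 4.57, 8.43, 4.76 and 4.24 by rising coordinate, so stronger and weaker peaks alternated up to the fifth. The range of the second peak (8.81 to 16.0) lay above that of the third (3.02 to 6.66). Ranges of all other neighbouring peaks in this chain overlap, so the alternation is a description of the point values. Distances between its summits were 1330, 1261, 1266, 960 and 1640 bp.

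A second chain of 6 lay on chromosome 5 from 37881579 to 37886214. Its folds were 3.42, 5.44, 4.35, 3.89, 4.66 and 10.0, so 5 weaker peaks came before 1 strong peak at the end. That last peak was 1033 bp wide and rested on 39 fragments (fold range 7.21 to 13.6). The other 5 had 17 to 23 fragments, and their ranges overlap. The range of the second peak (3.53 to 8.04) also overlaps that of the last.

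On chromosome 11 from 2583964 to 2590030, the 6 folds were 4.13, 4.96, 6.35, 3.51, 7.03 and 4.31. The preceding summit lay 2023 bp before this chain, just outside the rule. Another chain of 6 was on chromosome 8 from 18127244 to 18131305, the most compact of the 5 with 3093 bp between outer summits. It lay at 38.0% of the chromosome's span, counted to the end of the last called peak. The folds of this chain were 6.77, 4.02, 9.04, 4.79, 3.99 and 4.13, and its strongest peak rested on 33 fragments. The last of the 5, on chromosome 7 from 4869192 to 4873819, was the most even. Its folds of 4.21, 4.76, 3.85, 4.52, 5.05 and 4.08 rested on 16 to 23 fragments, and all 6 ranges overlap. It fell into 2 groups of 3 peaks with 1744 bp between them.

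**Figure D4:**
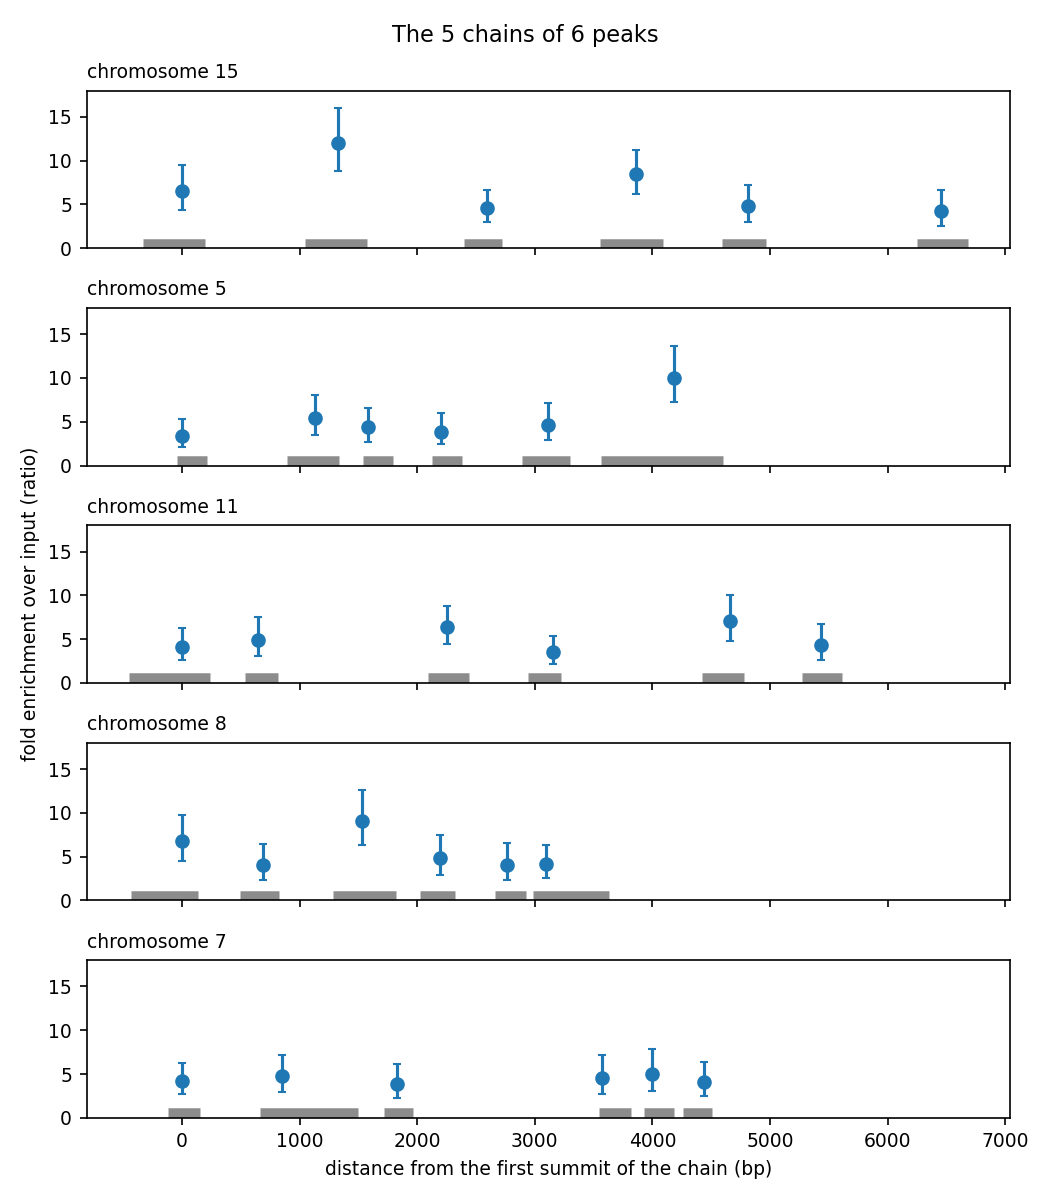
Fold enrichment over input (ratio) of each peak against the distance of its summit from the first summit (bp), for the 5 chains of 6 peaks. Bars are the counting ranges of each fold, with 95% exact Poisson bounds of its fragments, and grey blocks are the called peaks. Peaks above a fold of 9 occur on chromosomes 15, 5 and 8, and none on chromosomes 11 and 7.

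Among the 15 chains of 5, the most fragments (198) were on chromosome 16 from 36143050 to 36147497. Its first 2 peaks, with folds of 10.9 and 17.5 and summits 830 bp apart, were followed by 3 weaker ones of 6.32, 5.13 and 6.04. A chain on chromosome 5 from 36493461 to 36498886 had folds of 11.4, 4.54, 7.40, 4.99 and 7.68. On chromosome 9 from 48564572 to 48570661, folds of 11.1 and 10.4 at the second peak and the third stood beside 4.51, 3.85 and 5.09. The chain on chromosome 11 from 3907771 to 3912747 had its strongest peaks at the first place and the third (10.3 and 9.06), and the remaining folds were 5.52, 5.33 and 6.93. On chromosome 14 from 4976361 to 4980469, folds ran from 4.52 to 7.59. Each of these chains lay in the outer 25% of its chromosome's span.

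By summed fragments, the leading chain was on chromosome 13 from 14061228 to 14066040, with 233 fragments in 4 peaks. Most of them, 149, belonged to its second peak, from 14063070 to 14063663, with a fold of 34.0 (28.8 to 39.9), the highest in any chain of 3 or more. Its neighbours had folds of 5.44, 9.08 and 4.97. The distance of 1996 bp to the first peak was just inside the rule. The second chain by fragments, on chromosome 6 from 48743184 to 48746511, held 2 strong peaks side by side, with folds of 20.2 (16.5 to 24.7) and 17.9 (13.9 to 22.7) and summits 928 bp apart. A weak peak of 4.51 and one of 9.30 followed. On chromosome 12 from 5862256 to 5867018, 185 fragments were spread over folds of 12.0, 9.92, 5.33 and 14.7.

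The weakest peak of a chain had its highest fold on chromosome 1 from 55053614 to 55056962, where the 3 folds were 12.9, 8.60 and 8.47. Next came a chain on chromosome 17 from 12568846 to 12571588, with folds of 8.21, 8.06 and 15.9. On chromosome 6 from 21479545 to 21484403, at 41.9% of the span, 4 peaks had folds of 10.4, 7.50, 10.2 and 8.24. The other two were on chromosome 11 from 1585936 to 1589214, with folds from 7.41 to 8.43, and on chromosome 17 from 3860210 to 3863866, with folds from 7.27 to 10.3. No chain had every peak at a fold of 10 or more.

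The largest contrast within a chain was that on chromosome 13 described above, 6.83 times between its strongest and weakest peak. On chromosome 12 from 36162258 to 36165306 it was 6.81 times. There, peaks with folds of 14.1 and 20.03 stood on either side of one with 2.94, whose 17 fragments faced an input level of 5.12. On chromosome 17 from 4001182 to 4006389, a peak of 1845 bp with a fold of 22.7 followed folds of 10.9, 4.25 and 5.39. The smallest contrasts were in weak chains. Folds ran from 5.05 to 5.16 on chromosome 4 from 2366755 to 2368514, from 3.92 to 4.03 on chromosome 19 from 39488268 to 39490741, and from 4.25 to 4.44 on chromosome 9 from 7649869 to 7651881. These differences are well inside the counting ranges of the peaks.

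One chain stood apart in its input level. On chromosome 13 from 38836515 to 38839488, the 3 input levels were 11.5, 11.7 and 12.9, against a median of 3.29 over all peaks in chains. Its peaks rested on 45, 56 and 44 ChIP fragments, but their folds were only 3.69, 4.49 and 3.25. The next highest median input level, 5.12, was shared by 3 chains. They spanned 6400174 to 6401779 on chromosome 12, 2671621 to 2674213 on chromosome 11 and 27402327 to 27405676 on chromosome 13.

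Chains lay mostly toward the chromosome ends, as peaks did in general. The span of a chromosome ran to the end of its last called peak, also for the values per Mb below, and chromosome lengths were not used. The outermost 25% of the span at the start and at the end held 82.5% (80.5 to 84.4) of the peaks in chains. For single peaks the share was 79.8% (79.1 to 80.5). In the last 2 Mb at either end of the span were 19.2% (17.2 to 21.2) of the peaks in chains and 17.0% (16.4 to 17.7) of single peaks. Position is what the rule used, so these shares are descriptions. Beyond their own chain, peaks in chains of 3 or more had a median of 4 other peaks within 50 kb on either side. Peaks in chains of 2 had 4 as well, and single peaks had 3. No other peak was that near for 8.13% of the peaks in chains of 3 or more, 7.94% of those in chains of 2 and 11.7% of single peaks.

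The share of peaks in chains varied between chromosomes. It was highest on chromosome 17, with 12.5% (10.5 to 14.7) of 1003 peaks in 37 chains, and lowest on chromosome 19, with 5.96% (4.37 to 7.92) of 738 peaks in 14 chains. Chromosome 17 had 24.1 peaks per Mb, and chromosome 19 had 14.6. The share was 11.3% at 24.7 peaks per Mb on chromosome 11 and 6.54% at 12.4 peaks per Mb on chromosome 18. Chromosome 1 had 11.4% of its peaks in chains at 14.8 peaks per Mb, and chromosome 4 had 6.11% at 14.7 peaks per Mb. A link between share and density was not tested. Chromosome 13, the densest with 28.1 peaks per Mb, had 8.11% (6.68 to 9.74), close to the 9.07% of all chromosomes. Its 33 chains held 3 or 4 peaks each. Chains numbered 0.890 per Mb on chromosome 17 and 0.259 per Mb on chromosome 18.

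**Figure D5:**
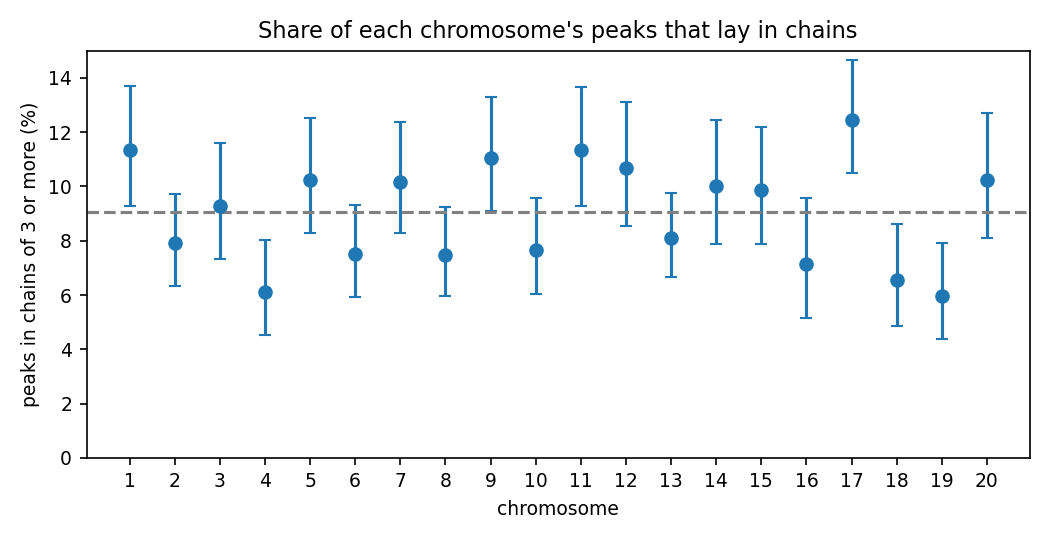
Share of the peaks of each chromosome that lay in chains of 3 or more (%), with 95% exact binomial intervals that treat peaks as independent. The dashed line is the share over all chromosomes, 9.07%, and chromosomes 17 and 19 mark the ends of the range.

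Most distances between chains were over 100 kb, and the spacing that scattered chains would have was not computed. The median distance from the last summit of a chain to the first of the next was 585 kb over 448 distances, and 54 (12.1%) were within 100 kb. Of 955 windows of 1 Mb, 282 held a chain, and 7 held 5 of them, the most found. The closest 2 chains were on chromosome 16, where 4 peaks from 29366769 to 29371183 and 3 peaks from 29372696 to 29375551 were separated by 2043 bp between summits. This pair was singled out after its values were seen.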

How the data were processed

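The submitters' processing notes name the aligner Bowtie (0.12.7), SAMtools (0.1.18) and the peak caller MACS2. For the build and the caller's settings no statement was given in the sources used here. Without a header, the deposited list was read as narrowPeak and belongs to the ChIP library. It gives a fold enrichment (a ratio) per peak. For each peak, p-value and q-value are deposited as −log10. The deposited score equals 10 times the −log10 q, rounded down, in 100% of cases, and was left aside. Deposited starts count from 0, and positions are printed counting from 1.

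Library depth is not stated. The whole number of summit fragments and the input level that together give the deposited fold and p-value, by the formulas MACS2 is known to use, were found in 100% of peaks, and the −log10 p so computed differed by 8.93e-05 at most from the deposited one. A fold at the median of 23 fragments is therefore imprecise, and intervals cover counting error only, since PCR copies are not independent. Chaining and recovery were tested on simulated data. No annotation was shown to match the coordinates, so genes, motifs and sequence were not analysed here. Chains named were the 10 with most members, the 5 with most fragments, the 5 with the strongest weakest peak, the extremes of contrast (3 and 3) and the 3 with the highest input. The rule for members and these lists were chosen with earlier results of these data known. The tools were Python 3.11.15, scipy 1.17.1, numpy 2.4.6, matplotlib 3.10.9 and pandas 2.3.3.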

Additional observations from a re-analysis of the deposited data

How the results depend on the processing

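The number of chains was 118, 283, 785 and 1184 (368, 915, 2680 and 4267 peaks) at chaining distances of 1000, 1500, 3000 and 5000 bp, by construction. It was 74 (232 peaks) at a −log10 q of at least 10, and 309 (991 peaks) with close peaks merged. Median fold in chains was 4.97, 5.25, 5.51 and 5.58 at those distances, 5.66 and 7.32 with a −log10 q of 5 or 10, and 5.58 after merging. Median fold of single peaks was 5.32 at 5000 bp, and 5.62 and 7.08 under the stricter q. The share of fold 10 or more in chains was 4.62% at 1000 bp and 16.4% at a −log10 q of 10, where 15.3% of all peaks reached it. The median input level was 3.40 there. Median width in chains was 378 bp at 1000 bp, 429 bp at a −log10 q of 5 and 486.5 bp at 10. Median width of single peaks was 388 bp at 1000 bp, 377 bp at 5000 bp, and 396 and 483 bp under the stricter q. The cause was not tested, except that stricter lists hold stronger peaks by construction. The other 62 of 94 values stayed inside their main interval or within 1.5 times the main count. Among them, the middle peak of chains of 3 was the strongest in 25.4% to 29.8% and the weakest in 35.9% to 44.9% under 8 alternatives each. Some of their intervals include an equal share for the 3 places. With close peaks merged, the intervals were 23.5% to 35.0% for the strongest and 31.6% to 43.8% for the weakest. At 3000 bp they were 26.0% to 33.8% and 31.9% to 40.1%. Alternatives on width and on the middle peak were chosen after seeing the data. No paired analysis was possible because ChIP and input are single libraries. Depth limits the precision of single folds, since peaks in chains rest on as few as 12 fragments.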
